A study of Mus musculus with 15 samples.

Results

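Emx1, Emx2, Lhx2, Otx1, Otx2, Dlx1, Dlx2 and Nkx2-1 are homeobox transcription factor genes that divide the early forebrain into territories. They were taken by name from the gene columns of a spatial transcript survey of mouse embryos, and all 8 were found among the 30534 genes counted. In that survey barcodes are flowed over a frozen section through parallel microchannels in 2 crossing directions, so that each crossing (a pixel) carries its own barcode pair. The transcripts of 11 sections were counted: embryonic day 10 (E10) with pixels 50 µm wide (3 libraries), 25 µm (1) and 10 µm (2), day 11 (E11) with 25 µm (2) and 10 µm (2), and day 12 (E12) with 50 µm (1). The labels give stage and pixel width and no genotype or treatment, and they do not say which embryo or body region a section came from. Replicates are therefore separate sections with nothing to tell whether they are separate embryos. The p-values rest on a spread between sections that is estimated with information shared over genes, so a gene's own spread can be wider. Groups of 1 section have no spread of their own and borrow it from the other groups.

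The vertebrate forebrain is patterned by transcription factors whose domains overlap in part and exclude each other in part. Emx1 and Emx2 are known for the dorsal telencephalon, the future cortex, where Emx2 takes part in setting cortical area size. Lhx2, a LIM homeobox factor, is needed for the eye field and for cortical identity. Otx2 is known for specifying the forebrain and midbrain as a whole, and Otx1 for a later part in cortex and sense organs. Dlx1 and Dlx2 drive the differentiation of inhibitory neurons in the ventral telencephalon and are also used in the pharyngeal arches. Nkx2-1 marks the most ventral telencephalon and the hypothalamus, and outside the brain the thyroid and lung.

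In the mouse build GRCm38 (GENCODE M21) the 8 genes lie on 6 chromosomes, and all are protein coding. Emx1 lies at chr6:85187438-85204462 on the plus strand and Emx2 at chr19:59458372-59465357 on the plus strand. Lhx2 is at chr2:38339281-38369733 on the plus strand. Otx1 is at chr11:21994764-22002897 and Otx2 at chr14:48657677-48673819, both on the minus strand. Dlx1 (chr2:71528113-71533981, plus strand) and Dlx2 (chr2:71543408-71546754, minus strand) are neighbours that point at each other, and their ends are 9426 bases apart. Nkx2-1 is at chr12:56531958-56536908 on the minus strand. Antisense or overlapping genes were annotated at 5 of the 8, and the strand used in counting is not given in the sources used here, so reads of a member and of its antisense partner cannot be told apart. The partners counted under their own names were few: 75 counts of Otx2os1, 12 of Gm27197 (antisense to Lhx2), 8 of Dlx1as, 6 of Emx2os and 1 each of Gm13584 (Lhx2) and Gm26973 (Nkx2-1) over all 11 libraries.

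RefSeq start windows (build GRCm38.p6) were matched for 7 members, 11 windows in all. The 4 below are the 250 bases before an annotated transcript start where no exon of any gene overlapped. They belong to genes of different domains: the broad rostral gene Otx2, the dorsal and wide gene Lhx2, and the ventral genes Dlx2 and Nkx2-1. Each is written 5′ to 3′ on the strand of its gene, from chr14:48667645-48667894 for Otx2 (inside the gene's annotated span), chr2:38339031-38339280 for Lhx2, chr2:71546755-71547004 for Dlx2 and chr12:56536909-56537158 for Nkx2-1. Capitals mark TAATTA, the core letters that many homeodomains bind.
Otx2: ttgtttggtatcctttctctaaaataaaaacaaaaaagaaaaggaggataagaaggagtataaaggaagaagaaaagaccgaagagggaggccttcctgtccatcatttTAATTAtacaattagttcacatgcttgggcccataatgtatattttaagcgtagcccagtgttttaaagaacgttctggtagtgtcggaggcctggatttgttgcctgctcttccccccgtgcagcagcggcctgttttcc
Lhx2: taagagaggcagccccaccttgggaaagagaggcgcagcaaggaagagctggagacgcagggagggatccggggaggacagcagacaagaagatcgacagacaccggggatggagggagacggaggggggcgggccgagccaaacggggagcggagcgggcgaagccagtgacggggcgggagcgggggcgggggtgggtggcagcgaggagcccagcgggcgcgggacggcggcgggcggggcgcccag
Dlx2: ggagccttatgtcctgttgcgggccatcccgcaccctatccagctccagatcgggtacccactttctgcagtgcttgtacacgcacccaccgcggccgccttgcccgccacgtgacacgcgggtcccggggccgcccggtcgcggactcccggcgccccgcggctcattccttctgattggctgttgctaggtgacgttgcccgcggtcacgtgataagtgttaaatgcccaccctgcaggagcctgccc
Nkx2-1: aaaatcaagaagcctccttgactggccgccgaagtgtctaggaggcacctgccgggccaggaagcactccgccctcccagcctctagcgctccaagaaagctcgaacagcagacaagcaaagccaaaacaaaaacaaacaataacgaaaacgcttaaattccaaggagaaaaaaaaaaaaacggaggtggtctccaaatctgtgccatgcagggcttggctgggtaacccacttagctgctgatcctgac
Searched on both strands, TAATTA (its own reverse complement) was found once in the Otx2 window and not in the other 3 windows printed. It was present in 4.84% of all 32851 RefSeq windows of this length. The letters GGATTA, the core bound by Otx proteins, were in none of the 4 and in 6.25% of all windows, and CAAGTG, bound by Nkx2-1, was in none and in 11.6% of all. Another Otx2 window, at chr14:48665110-48665359 and overlapping exons, held 3 TAATTA and 1 GGATTA, and the other 6 windows not printed held none of the 3 motifs. These are descriptions of letters, and no match says only that they are not in that window.

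Pixels counted as tissue if their total reached 0.1 of their section's 95th percentile. They numbered 829 to 2271 per section and held 1.56 to 12.0M counts (M is 1000000). The 3 sections at E10 50 µm had 859, 829 and 839 tissue pixels with medians of 11332, 8239 and 10659 counts, the deepest pixels of the series. Levels are CPM, counts per 1000000 gene counts in the tissue pixels of a section. They are not scaled by gene length, so levels of different genes are not compared. Sections of 1 group differed in what they held. At E10 10 µm, replicate 2 had more of the dorsal genes and less Nkx2-1 than replicate 1. Of the E11 sections, replicate 1 at 10 µm was the only one in which Otx1 was counted. Results at E11 are given below with and without each section.

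The dorsal genes were present in every section, and highest in E10 sections. Emx1 stood at 5.02, 3.10 and 3.38 CPM at E10 50 µm (3.84 ± 1.04, SD, n = 3), at 4.48 at E10 25 µm, and at 2.83 and 17.2 at E10 10 µm. At E11 it was 0.389 and 0.365 (10 µm) and 0.197 and 0.521 (25 µm), and at E12 0.154, which is 1 count. All 6 E10 sections were thus above all 5 later ones. Emx2 followed a different course, since its later sections overlapped the E10 range. It stood at 19.4, 15.6 and 17.1 CPM at E10 50 µm (17.4 ± 1.90), at 34.5 at E10 25 µm, at 10.2 and 69.4 at E10 10 µm, at 20.2 and 10.9 at E11 10 µm, at 2.17 and 3.13 at E11 25 µm and at 15.8 at E12. Only the 2 sections at E11 25 µm lay clearly under the rest. Lhx2 had 62.0, 89.0 and 77.8 CPM at E10 50 µm (76.3 ± 13.6), 208.5 at E10 25 µm, and 76.4 and 215.5 at E10 10 µm. Later sections held 72.7 and 31.0 (E11 10 µm), 8.49 and 21.1 (E11 25 µm) and 12.8 (E12).

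The Otx genes split the later sections into those with the signal and those at or near 0. Otx2 stood at 85.7, 87.2 and 165.5 CPM at E10 50 µm (113 ± 45.7), at 59.5 at E10 25 µm, at 35.6 and 75.3 at E10 10 µm and at 57.6 in replicate 1 at E11 10 µm. In replicate 2 of that group it was 0.729, it was 0 in both sections at E11 25 µm, and it was 3.23 at E12. Otx1 went the same way, with 19.9, 15.7 and 36.0 CPM at E10 50 µm (23.9 ± 10.7), 19.8 at E10 25 µm, 9.0 and 38.3 at E10 10 µm, 33.5 and 0 at E11 10 µm, 0 and 0 at E11 25 µm and 2.00 at E12. A count of 0 allows up to 3 counts, which is 1.09 CPM in replicate 2 at E11 10 µm and 0.592 and 0.391 CPM at E11 25 µm. These limits cover counting error only.

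Dlx1 and Dlx2 had counts in every section and were highest in 1 section at E11. At E10 50 µm Dlx1 stood at 8.64, 11.3 and 12.0 CPM (10.7 ± 1.79) and Dlx2 at 5.73, 5.72 and 5.45 CPM (5.63 ± 0.156). At E10 10 µm Dlx1 was 8.33 and 16.2 CPM and Dlx2 5.08 and 18.1, and at E10 25 µm they were 16.6 and 7.68. In replicate 1 at E11 10 µm, both were above their whole range at E10, with 22.6 CPM of Dlx1 and 19.1 of Dlx2. In the other 4 later sections Dlx1 was 0.912 to 2.92 and Dlx2 0.521 to 2.31. Nkx2-1 was measured at 9.08, 5.60 and 8.56 CPM at E10 50 µm (7.75 ± 1.87), at 16.6 at E10 25 µm and at 14.3 and 1.89 at E10 10 µm. It did not follow Dlx1 and Dlx2 into the E11 section that was rich in them: there it was 1.17 CPM (3 counts), then 0 in replicate 2, 0 and 0.912 at E11 25 µm and 3.08 at E12. In summed counts fewer cells of a type and less RNA per cell cannot be told apart, and neither can stage, region, embryo and batch.

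**Figure D1:**
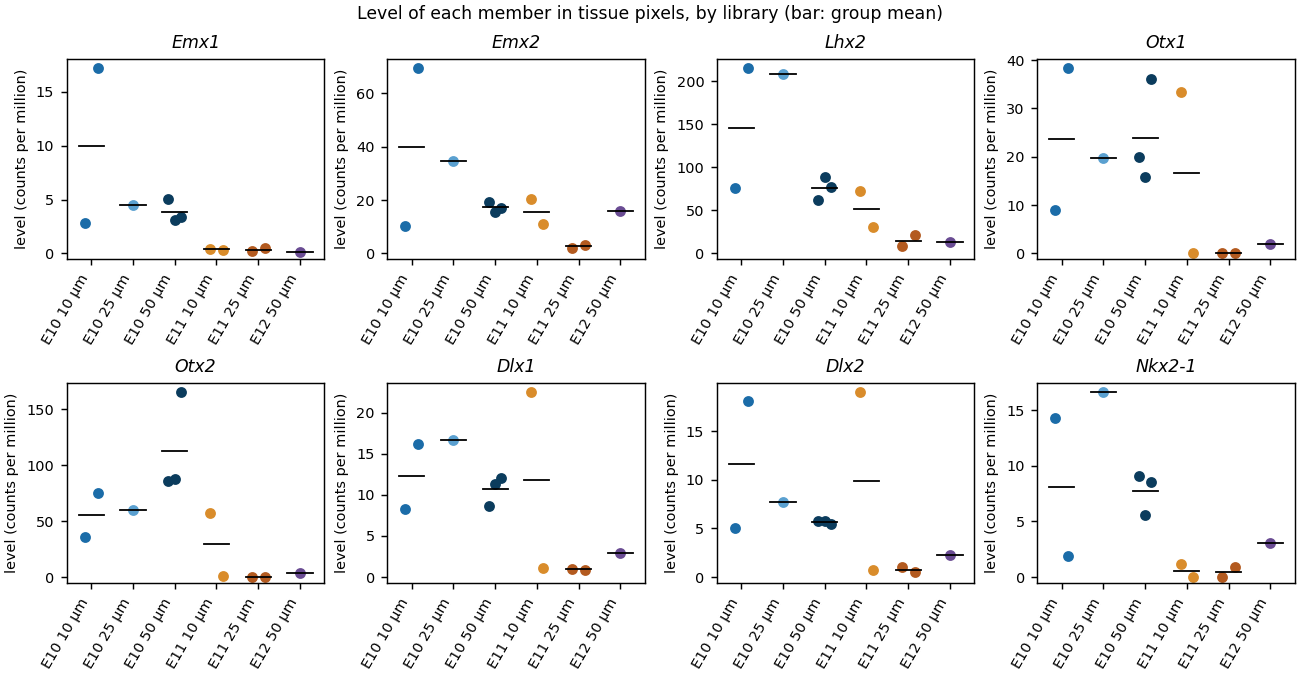
Level of each of the 8 genes (vertical axis, CPM) in the 11 sections, grouped along the horizontal axis by stage and pixel width; points are sections and bars are group means. Otx1 and Otx2 lie at or near 0 in 3 of the 4 E11 sections, while Emx2 overlaps between stages.

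Against E10, the E11 sections were lower for Emx1, Lhx2 and Nkx2-1. The comparison averages the change at 10 µm and the change at 25 µm, from 6 group means fitted to all 11 libraries with the quasi-likelihood test of edgeR. Lhx2 had a log2 change of -2.57 (SE 0.443, edgeR adjusted p = 0.0160). The change of Emx1 was -3.98 (SE 0.826, edgeR adjusted p = 0.0238). Nkx2-1 changed by -4.30 (SE 0.892, edgeR adjusted p = 0.0291). These are 3 of 8 members called lower, where 1.67% of 18233 genes were. The members' median was -3.27, against 0.050 over all genes. Emx2 (-2.43, edgeR adjusted p = 0.0508), Dlx1 (-2.0, edgeR adjusted p = 0.136) and Dlx2 (-1.72, edgeR adjusted p = 0.260) did not pass.

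The calls rest on few sections. Without replicate 1 at E11 25 µm, 0 members passed with edgeR, with 5 at an unadjusted p under 0.05, and the adjusted p was 0.102 for Emx1, 0.0748 for Lhx2 and 0.10 for Nkx2-1. Leaving out replicate 2 at E11 10 µm ended the calls of Emx1 (0.0569) and Nkx2-1 (0.0568), and that of Nkx2-1 also ended without replicate 1 at E10 10 µm (0.0506), replicate 1 at E10 50 µm (0.0523) or replicate 3 at E10 50 µm (0.0506). Without replicate 1 at E11 10 µm, the section that held Otx1, all 8 passed. DESeq2 called 6 members, among 1428 genes. The summed level of 8 limb and body wall genes was above every E10 section in 4 of the 5 later ones, at 52.5 and 102.5 CPM at E11 10 µm, 118 and 145 at E11 25 µm and 201 at E12 against 25.7 to 76.3 at E10, and that of 7 neural progenitor genes was 142 to 984 CPM at E11, 392 at E12 and 668 to 1984 at E10. Their part in the difference was not tested.

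Otx1 and Otx2 did not pass either in the edgeR comparison of E11 with E10. Because these 2 genes had no count in some groups, their changes are given as bounds on pooled counts. With the floor of 3 counts over both sections, the level at E11 25 µm was at least 84.2-fold lower than at E10 25 µm for Otx1 and at least 253-fold lower for Otx2. These bounds take the E10 25 µm level as measured in its 1 section, from 31 counts of Otx1 and 93 of Otx2, without counting error. At 10 µm, where 1 of 2 sections at E11 held the signal, the level at E10 was 1.11 times that at E11 for Otx1 (95% counting interval 0.872 to 1.43) and 1.69 times for Otx2 (1.42 to 2.03). For Emx1, with 2 counts at E11 10 µm, the level at E10 was 19.2 times higher (5.2 to 160), and for Nkx2-1, with 3 counts, 18.5 times (6.24 to 90.7). Counting intervals leave out the spread between sections.

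At E12, with 1 section, edgeR called 0 of 8 members against E10 50 µm, where 0.214% of genes were called lower. At an unadjusted p under 0.05 there were 2 members, Emx1 and Lhx2, among 2619 of 18233 genes. DESeq2 called 1 member, among 520 genes. Emx2 was the member that differed least, at -0.17 (SE 0.799, edgeR adjusted p = 0.955). Lhx2 was at -2.63 (SE 0.768, edgeR adjusted p = 0.125). Between E10 10 µm and E10 50 µm edgeR again called 0 members, where 0.11% of genes were called in either direction. There, 1 member had an unadjusted p under 0.05, among 1978 of 18233 genes. DESeq2 called 413 genes and 0 members. Between E11 10 µm and E11 25 µm edgeR called 0 members, where 2.07% of genes were called. An unadjusted p under 0.05 was found for 6 members, among 2094 of 18233 genes, and DESeq2 called 6, among 561 genes. In that group the 2 sections at 10 µm stood far apart for 4 of those 6, Otx1, Otx2, Dlx1 and Dlx2, as given above.

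Within the sections at E10 50 µm, the members ranged from rare to widespread. Otx2 had at least 1 count in 40.7, 30.6 and 47.7% of tissue pixels (replicates 1, 2 and 3) and Lhx2 in 36.9, 38.2 and 40.6%. Otx1 (17.9, 11.2 and 24.7%) and Emx2 (17.0, 11.9 and 14.9%) were intermediate. Dlx1 was seen in 7.68, 9.17 and 11.1%, Nkx2-1 in 8.03, 4.95 and 9.06%, Dlx2 in 5.70, 4.95 and 5.60%, and Emx1 in 5.47, 2.90 and 3.70%. The shares depend on depth: after each pixel was thinned to 1000 counts, Lhx2 was seen in 6.64, 7.12 and 7.75% and Emx1 in 0.582, 0 and 0.238%. A pixel with no count of a rare gene may therefore still lie in its domain.

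Most positive pixels of the 2 most widespread genes lay in 1 patch. Of the Otx2-positive pixels, 68.9, 70.9 and 84.5% belonged to 1 patch of touching pixels, and of the Lhx2-positive ones 70.7, 64.7 and 76.5%. The largest Emx2 patch held 43.8, 38.4 and 30.4% of its positive pixels. Of the Emx1 pixels, 17.0, 16.7 and 19.4% were in the largest patch, and of the Otx1 pixels 16.9, 58.1 and 68.6%. A larger share of positive pixels makes larger patches by itself. The patches were not compared with a random placement of as many pixels, so they do not show whether a gene is clustered. The highest count of a gene in 1 pixel was 39 for Otx2 and 4 for Emx1 in these sections.

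**Figure D2:**
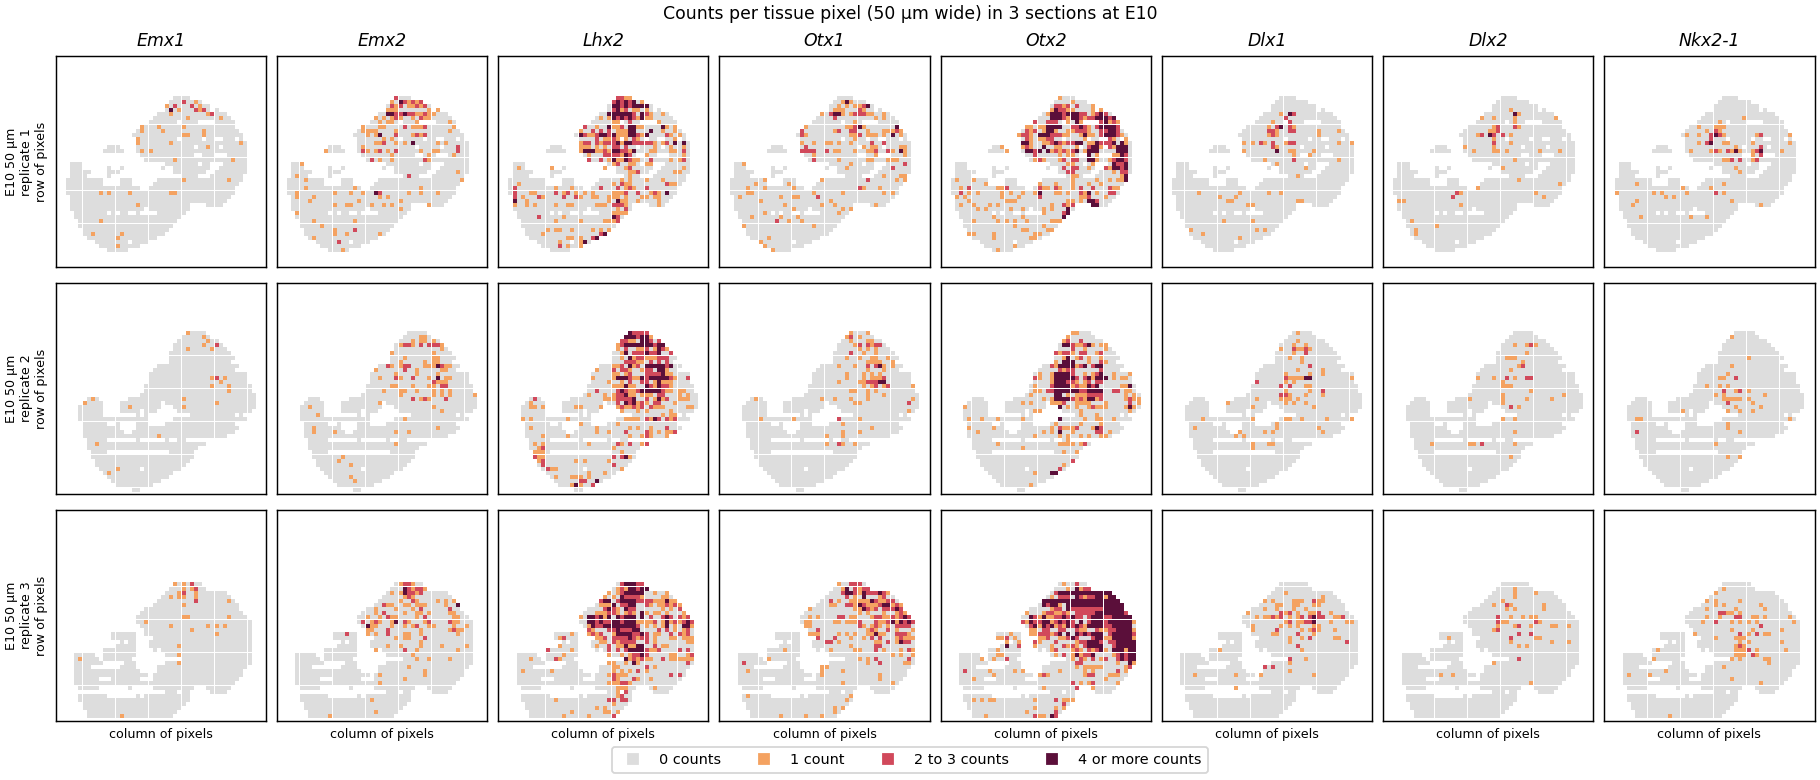
Maps of the 3 sections at E10 50 µm (rows) for the 8 genes (columns). Each square is a tissue pixel, placed by its grid row and column, and its colour is the count of the gene there (0, 1, 2 to 3, or 4 and more). Lhx2 and Otx2 have many positive pixels, with 64.7 to 84.5% of them in 1 patch, and Emx1 has few.

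To see which members share a domain, the counts of each section were summed over the pixels positive for 1 member and over those negative for it, and all genes were tested with edgeR on the 3 pairs of sums with the section as a block. The gene that chose the pixels was left out. Since the first gene's pixels hold the second gene whenever the reverse is true, the 2 directions of a pair are not independent. They are not interchangeable either, because the ratio and the call can differ with the gene that chose the pixels. Positive pixels were also deeper: the median count of Emx1-positive pixels was 17730, 12062.5 and 14403, against 10875.5, 8157 and 10435 in the others, and the part of depth in the results was not tested. Every call in these comparisons depends on the block, which was fitted because both sums of a pair come from 1 section. A fit with no block ignores this pairing and counts differences between sections as error. With no block, edgeR called 0 genes in each of the 11 pixel comparisons below, with 56 to 285 genes at an unadjusted p under 0.05.

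Emx1-positive pixels (47, 24 and 31 per section) were enriched in the other dorsal gene and in Otx1. Emx2 stood at 37.9 against 17.9 CPM in replicate 1, 27.4 against 15 in replicate 2 and 52.9 against 15.2 in replicate 3 (log2 1.29, SE 0.243, edgeR adjusted p = 0.000334). Lhx2 was at 97.7 against 59.1, 184 against 84.2 and 185 against 72.1 CPM (log2 1.07, SE 0.127, edgeR adjusted p = 5.16e-10). For both, every section was higher in the positive pixels. Otx1 rose by a log2 of 1.31 (SE 0.208, edgeR adjusted p = 5.92e-06), from 18.4, 14 and 33.6 CPM to 37.9, 49.8 and 81.2. That makes 3 of 7 members, where 0.208% of 13945 genes were called higher and 0.201% lower. Nkx2-1 was the member with the lowest ratio, at 4.60 against 9.45, 2.49 against 5.76 and 9.44 against 8.51 CPM (log2 -0.57, SE 0.503, edgeR adjusted p = 0.918), and its sections did not go 1 way. The call of Emx2 was lost without replicate 3 (edgeR adjusted p = 0.114).

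In Emx2-positive pixels Emx1, Lhx2, Otx1 and Otx2 passed, the last of which did not pass in Emx1-positive pixels (log2 0.36, SE 0.120, edgeR adjusted p = 0.274). Emx1 was at 9.93 against 3.69, 6.49 against 2.43 and 8.52 against 2.02 CPM (log2 1.64, SE 0.305, edgeR adjusted p = 0.0163). Lhx2 was at 121 against 46.0, 184 against 70.2 and 136 against 62.2 CPM (log2 1.32, SE 0.0937, edgeR adjusted p = 3.95e-06). The Otx genes were higher too, by a log2 of 1.44 for Otx1 (SE 0.169, edgeR adjusted p = 0.000491) and 0.92 for Otx2 (SE 0.127, edgeR adjusted p = 0.00224). In all, 4 of 7 members passed, where 0.362% of genes were higher and 0.618% lower. Dlx1 (0.54), Dlx2 (0.71) and Nkx2-1 (0.072, edgeR adjusted p = 0.962) did not pass. Emx1 was lost with DESeq2 (adjusted p = 0.102), without replicate 3 (edgeR, 0.0782) and when a positive pixel needed 2 counts (edgeR, 0.0728), and Otx2 was lost with 2 counts (edgeR, 0.0541).

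Lhx2 was the member whose pixels were richer in all the others. All 7 passed, between a log2 of 1.01 for Otx2 (SE 0.108, edgeR adjusted p = 3.41e-05) and 1.61 for Dlx2 (SE 0.267, edgeR adjusted p = 0.000275), where 0.815% of genes were higher and 1.72% lower. Dlx2 stood at 9.0 against 3.05, 9.03 against 2.56 and 7.75 against 2.82 CPM. Emx2 stood at 28.2 against 12.2, 24.2 against 7.45 and 25.6 against 7.46 CPM. Dorsal and ventral genes were thus both higher where Lhx2 was seen, in every section. For Nkx2-1 the reverse reading did not pass: Lhx2 differed by a log2 of 0.24 in Nkx2-1-positive pixels (SE 0.133, edgeR adjusted p = 0.763). The call of Emx1 was lost without replicate 2 (edgeR adjusted p = 0.0501) or 3 (0.429) and with DESeq2 (0.451), and that of Nkx2-1 without replicate 1 (edgeR, 0.0712) or 3 (0.0720) and with DESeq2 (0.121).

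In Otx1-positive pixels the 3 dorsal genes passed as higher and no ventral member passed. Emx1 had the largest ratio, with 11.8 against 3.07, 9.57 against 1.96 and 6.39 against 1.75 CPM (log2 2.00, SE 0.311, edgeR adjusted p = 7.18e-05). Emx2 (1.4, SE 0.164) and Lhx2 (1.03, SE 0.115) also passed, which makes 3 of 7, where 0.518% of genes were higher and 1.02% lower. Otx2 itself was higher in all 3 sections, at 141 against 69.6, 144 against 77.3 and 307 against 88.1 CPM, but did not pass (log2 1.31, SE 0.215, edgeR adjusted p = 0.140), and its ratio in replicate 3 stood above the others. It passed without replicate 1, without replicate 3, with DESeq2, with no filter on low counts and among neural pixels alone. Dlx1 (0.48), Dlx2 (0.28) and Nkx2-1 (0.38) did not pass.

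In Otx2-positive pixels members of both groups passed. The ventral genes were higher by a log2 of 1.4 for Dlx1 (SE 0.192, edgeR adjusted p = 5.76e-05), 1.43 for Dlx2 (SE 0.275, edgeR adjusted p = 0.00283) and 1.31 for Nkx2-1 (SE 0.245, edgeR adjusted p = 0.00206). Otx1 (1.56, SE 0.160), Emx2 (1.24, SE 0.168) and Lhx2 (0.91, SE 0.0883) passed as well. Together 6 of 7 members were higher, where 0.968% of genes were higher and 1.89% lower. The exception was Emx1, at 5.97 against 4.17, 3.57 against 2.78 and 4.54 against 1.49 CPM (log2 0.75, SE 0.313, edgeR adjusted p = 0.282). Nkx2-1 was lost without replicate 1 (edgeR adjusted p = 0.191) and with DESeq2 (0.0927), and Dlx2 with DESeq2 (0.117). Whether the Otx1 and Otx2 pixels differ from each other was not tested.

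Dlx1-positive pixels (66, 76 and 93) had Dlx2 and Nkx2-1 as their closest members. Dlx2 stood at 21.2 against 3.85, 16.7 against 4.10 and 12.1 against 4.09 CPM (log2 2.02, SE 0.276, edgeR adjusted p = 6.16e-05). Nkx2-1 was at 27.7 against 6.82, 11.1 against 4.79 and 21.4 against 5.90 CPM (log2 1.79, SE 0.241, edgeR adjusted p = 4.97e-05). Both were higher in every section, by more than any other member. Otx2 (0.80, SE 0.0986) and Lhx2 (0.56, SE 0.0992) were higher to a lesser degree, so that 4 of 7 passed, where 0.495% of genes were higher and 0.581% lower. The call of Lhx2 was lost without replicate 1 (edgeR adjusted p = 0.108) or 2 (0.0559). Emx1 was lower in each section, at 4.07 against 5.14, 1.85 against 3.28 and 3.29 against 3.40 CPM, but the difference was within its error (log2 -0.31, SE 0.434, edgeR adjusted p = 0.884).

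Dlx2-positive pixels (49, 41 and 47) returned the pair. Dlx1 stood at 29.1 against 6.66, 43.7 against 8.64 and 33.0 against 10.2 CPM (log2 2.04, SE 0.236, edgeR adjusted p = 5.67e-09), and this call was kept under every alternative but the fit with no block. Nkx2-1 (1.45, SE 0.305, edgeR adjusted p = 0.00347), Lhx2 (0.68) and Otx2 (0.67) made it 4 of 7, where 0.343% of genes were higher and 0.517% lower. Nkx2-1 was lost without replicate 1 (edgeR adjusted p = 0.707) and with DESeq2 (0.266), and Lhx2 and Otx2 when a positive pixel needed 2 counts (edgeR, 0.158 and 0.853). Emx1 differed by 0.025 (SE 0.551), with an error larger than the difference.

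Nkx2-1-positive pixels (69, 41 and 76) had 1 member that passed. Dlx1 stood at 19.6 against 7.12, 15.8 against 10.9 and 36.6 against 8.41 CPM (log2 1.53, SE 0.260, edgeR adjusted p = 0.00520), 1 of 7 where 0.137% of genes were higher and 0.245% lower. Dlx2 was higher in each section too (log2 1.32, SE 0.337, edgeR adjusted p = 0.128) without passing, and passed without replicate 2 (edgeR adjusted p = 0.00679) and with no filter on low counts (0.0311). Otx2 was higher in each section, at 138 against 78.4, 222 against 75 and 175 against 164 CPM (log2 0.74, SE 0.336, edgeR adjusted p = 0.783), and passed without replicate 3 (7.44e-05) and with 2 counts per positive pixel (0.00905). Lhx2 did not pass and its sections did not go 1 way, with 2 higher and 1 lower (log2 0.24, SE 0.133, edgeR adjusted p = 0.763). The dorsal gene Emx1 was lower in each section, at 2.90 against 5.32, 1.43 against 3.25 and 2.2 against 3.56 CPM (log2 -0.85, SE 0.517, edgeR adjusted p = 0.791). Otx1 was lower in each as well (log2 -0.37, SE 0.198, edgeR adjusted p = 0.749). Neither Emx1 nor Otx1 passed, and in none of the 8 comparisons was a member called lower. The call of Dlx1 was lost without replicate 1 (edgeR adjusted p = 0.0665) or 3 (0.349) and with 2 counts (0.0508).

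**Figure D3:**
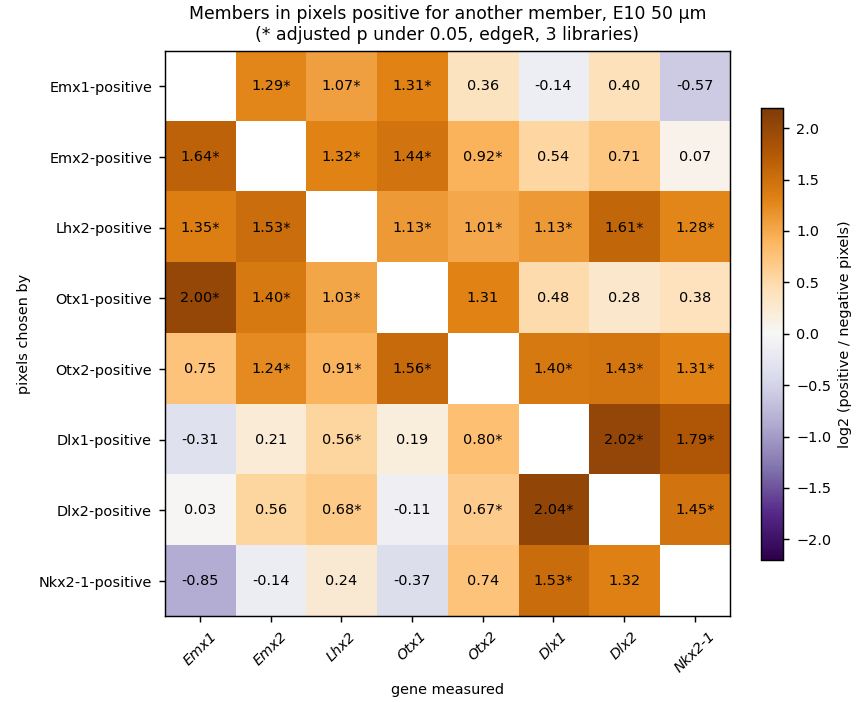
Log2 ratio of each gene (columns) between pixels positive and negative for another gene (rows) at E10 50 µm; colour is the log2 ratio from edgeR and a star marks an adjusted p under 0.05. The row of Lhx2 is starred throughout, the rows of Dlx1 and Dlx2 hold the largest values for each other (2.02 and 2.04), and no negative cell is starred.

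Joint detection was also counted pixel by pixel. Of the Dlx1-positive pixels, 21.2, 19.7 and 16.1% also held Dlx2, against 4.41, 3.45 and 4.29% of the other pixels. Of the Emx1-positive pixels, 46.8, 41.7 and 61.3% held Otx1, against 16.3, 10.3 and 23.3%. Emx1 and Nkx2-1 met in 4 of 47, 1 of 24 and 3 of 31 Emx1-positive pixels, a mean of 7.45% against 7.34% of other pixels, so at this depth their overlap could not be told from that of Nkx2-1 with tissue in general. Of the Nkx2-1-positive pixels, 64.4 ± 3.76% held Lhx2 against 36.5 ± 1.73% of the others. These shares follow depth as well as level, since positive pixels were deeper.

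Neighbourhoods of 3 by 3 pixels around positive pixels were read against their share of all counts. Neighbourhoods of Dlx1-positive pixels held 46.2% of all counts, but 80.3 ± 5.50% of the Dlx2 counts and 76.3 ± 8.94% of the Nkx2-1 counts (SD, n = 3). Those of Nkx2-1-positive pixels held 40.9% of all counts, 64.2 ± 16.9% of Dlx1 and 31.5 ± 14.3% of Emx1. The Emx1 share was below the share of all counts in each section, at 28.1% against 40.4%, 19.2% against 33.3% and 47.2% against 49.0%, which was not tested. Around Emx1-positive pixels, which held 28.2% of all counts, lay 50.0 ± 9.83% of Emx2, 48.6 ± 5.72% of Lhx2 and 43.1 ± 4.33% of Otx1, while Nkx2-1 stood at 30.7 ± 8.84%. Dlx2 there stood at 42.7 ± 24.4%, near Otx1 but with a wide spread. Around Emx2-positive pixels, with 62.6% of all counts, the shares of dorsal and ventral members lay close together, from 77.1% for Nkx2-1 and 80.5% for Dlx2 to 82.9% for Otx1. Around Lhx2 the neighbourhoods took in 87.3% of all counts and 94.3 to 97.9% of every other member, which leaves little room for a difference.

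Genes of the dorsal and ventral forebrain lists were counted in the same comparisons, and differences between these counts were not tested. Of 14 dorsal forebrain genes, 6 of 14 tested were higher in Emx1-positive, 6 of 14 in Emx2-positive, 8 of 14 in Lhx2-positive, 7 of 14 in Otx1-positive and 4 of 14 in Otx2-positive pixels, but 2 of 13 in Dlx1-positive, 1 of 14 in Dlx2-positive and 1 of 13 in Nkx2-1-positive pixels. Neurog2, a proneural factor of the cortex, was the 1 dorsal gene lower in Otx2-positive (-0.49) and Dlx2-positive pixels (-0.74). Wnt8b, a ligand of the dorsal midline and cortical hem, led that list. In Emx2-positive pixels it stood at 80.3 against 14.9, 77.1 against 18.4 and 102 against 25.5 CPM (log2 2.17, SE 0.122, edgeR adjusted p = 2.2e-07). Its log2 ratio was 1.95 in Emx1-positive, 1.92 in Lhx2-positive and 1.88 in Otx1-positive pixels. Dmrta2 and Dmrt3, regulators of dorsal telencephalon, were higher in Emx1-, Emx2-, Lhx2- and Otx1-positive pixels, and Dmrta2 in Otx2-positive ones as well.

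The 13 ventral forebrain genes passed in 6 of 11 tested in Dlx1-positive, 5 of 11 in Dlx2-positive and 6 of 11 in Otx2-positive pixels, against 1 of 12 in Emx1-positive and 2 of 11 in Emx2-positive ones. In Nkx2-1-positive pixels 2 of 11 were higher, in Otx1-positive 3 of 13, and in Lhx2-positive 3 of 11, with Isl1 lower (-0.49). Olig2, a bHLH factor of the ventral forebrain, was highest in ratio beside Nkx2-1. It stood at 35.5 against 5.01, 33.0 against 4.81 and 30.0 against 11.0 CPM in Nkx2-1-positive pixels (log2 2.24, SE 0.262, edgeR adjusted p = 8.19e-05), and its log2 ratio was 1.91 in Dlx1-positive and 1.89 in Dlx2-positive pixels. Six3, a factor of the rostral forebrain and eye, was higher in Nkx2-1- (1.36), Dlx1- (1.24) and Dlx2-positive (0.95) pixels. Of 12 hypothalamus genes, Nkx2-4, the close relative of Nkx2-1, was higher in Nkx2-1-positive pixels, with 21.8 against 2.91, 5.73 against 1.95 and 19.8 against 4.32 CPM (log2 2.39, SE 0.325, edgeR adjusted p = 0.000524), and Lhx1 was lower (-0.60).

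Of 11 midbrain and hindbrain genes tested, 6 were lower in Otx1-positive and 4 in Lhx2-positive pixels, and of 12 tested, 5 were lower and 2 higher in Otx2-positive pixels. Hoxa2, Hoxa3 and Hoxb3 were among those lower in all 3 comparisons. Hoxb3, a gene of the caudal hindbrain and spinal cord, stood at 2.99 against 10.2, 3.27 against 14.5 and 4.84 against 20.4 CPM in Otx2-positive pixels (log2 -1.99, SE 0.217, edgeR adjusted p = 2.24e-06). It was lower by -2.05 in Otx1-positive and by -2.17 in Emx2-positive pixels. Fgf8 and Pax5, which act at the border of midbrain and hindbrain, were higher in Otx2-positive pixels (1.92 and 0.61).

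Dlx1, Dlx2 and Nkx2-1 are also used outside the brain, so markers of those sites were read in the same pixels. Of the pharyngeal arch and head mesenchyme genes, 1 of 10 tested was higher in Dlx1-positive and 1 of 11 in Dlx2-positive pixels, and in both it was Lhx6, which the ventral forebrain list holds too. Msx1 was lower in Dlx1-positive pixels (-0.43). The 6 thyroid and lung endoderm genes tested in Nkx2-1-positive pixels had a median log2 ratio of -0.25, against -0.000196 over all genes.

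The pixels were then compared kind against kind, among neural pixels only, that is those in which the share of 7 neural progenitor genes was at or above the section's median. Emx pixels (Emx1 or Emx2, no Nkx2-1; 72, 48 and 63 per section) were set against Nkx2-1 pixels (Nkx2-1, no Emx; 25, 22 and 25). Otx1 and Lhx2 were higher in Emx pixels. Otx1 stood at 48.1 against 10.7, 37.7 against 10.5 and 72.1 against 35 CPM (log2 1.51, SE 0.302, edgeR adjusted p = 0.00127). Lhx2 stood at 124 against 74.6, 210.5 against 78.4 and 123 against 96.2 CPM (log2 0.81, SE 0.172, edgeR adjusted p = 0.00443). Each was higher in every section, 2 of 4 members tested, where 0.209% of 8630 genes were higher and 0.104% lower. Otx2 differed by -0.14 (SE 0.135, edgeR adjusted p = 0.972) and Dlx1 by -0.94 (SE 0.356, edgeR adjusted p = 0.579). Dlx2 had too few counts to be tested.

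Among the genes that were not members, 4 of 8 dorsal genes tested were higher in Emx pixels and 1 of 7 ventral genes was lower. Gli3, the zinc finger factor that counters Shh in the dorsal forebrain, stood at 248 against 103, 295 against 154 and 259 against 149 CPM (log2 0.99, SE 0.138, edgeR adjusted p = 7.76e-08). Wnt8b (1.32), Dmrta2 (1.16) and Pax6 (0.69) were the others. The largest rises were of Fezf2, a factor of rostral forebrain and later of deep cortical neurons, at 38.7 against 14.2, 36.3 against 5.23 and 21.4 against 6.56 CPM (log2 1.79, SE 0.406), then Cdca7l (1.77), Rspo3, a secreted enhancer of Wnt signalling (1.54), and Zfp143 (1.45). Kat6b, a histone acetyltransferase, rose by 1.07. Olig2 was the gene with the largest fall, at 5.52 against 49.8, 11.6 against 36.6 and 16.6 against 37.2 CPM (log2 -1.93, SE 0.355, edgeR adjusted p = 0.000334). Pou3f1, Sulf1, Cnn2, Fbn2, Peg3 and Cdkn1c fell by 0.40 to 0.90, and Lmo1 (-1.13) did so mainly in replicate 1, at 45 against 142 CPM, with 11.6 against 13.1 and 26.9 against 32.8 in the others.

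Against Dlx pixels (Dlx1 or Dlx2, no Emx; 43, 50 and 42), Emx pixels without Dlx (69, 40 and 47) were read next. Otx1 was higher, at 44.9 against 9.45, 41.6 against 19.0 and 78.0 against 46.8 CPM (log2 1.19, SE 0.243, edgeR adjusted p = 0.00313), 1 of 3 members tested, where 0.138% of 9449 genes were higher and 0.0635% lower. Lhx2 (0.47, SE 0.142, edgeR adjusted p = 0.218) and Otx2 (0.037, SE 0.121) did not pass. The dorsal genes Wnt8b (0.92), Dmrta2 (0.93), Gli3 (0.65) and Pax6 (0.53) were 4 of 9 tested, and Olig2 (-1.61) 1 of 6 ventral genes, at 9.14 against 40.1, 12.1 against 24.4 and 10.3 against 27.3 CPM. Rspo2 (1.34), Zfp143 (1.24) and Lrrn1 (0.74) rose. Gata3 rose by 1.47 with a spread between sections as large as its mean (45.4 ± 46.0 CPM). Pou3f1 (-0.88), Peg3 (-0.48), Fbn2 (-0.45) and Nnat (-0.45) fell.

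Calls in these direct comparisons depended on the tool and on replicate 1. For Nkx2-1 pixels, DESeq2 called 1 gene and 0 members, with 59 genes and 2 members at an unadjusted p under 0.05, and without replicate 1 edgeR called 0 genes, with 417 at an unadjusted p under 0.05 and Otx1 at an adjusted p of 0.654. The call of Lhx2 there was also lost without replicate 2 (0.841) and with 2 counts per positive pixel (edgeR, 0.0800). For Dlx pixels, DESeq2 called 0 genes, with 50 at an unadjusted p under 0.05, and Otx1 was lost without replicate 1 (edgeR adjusted p = 0.286).

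**Figure D4:**
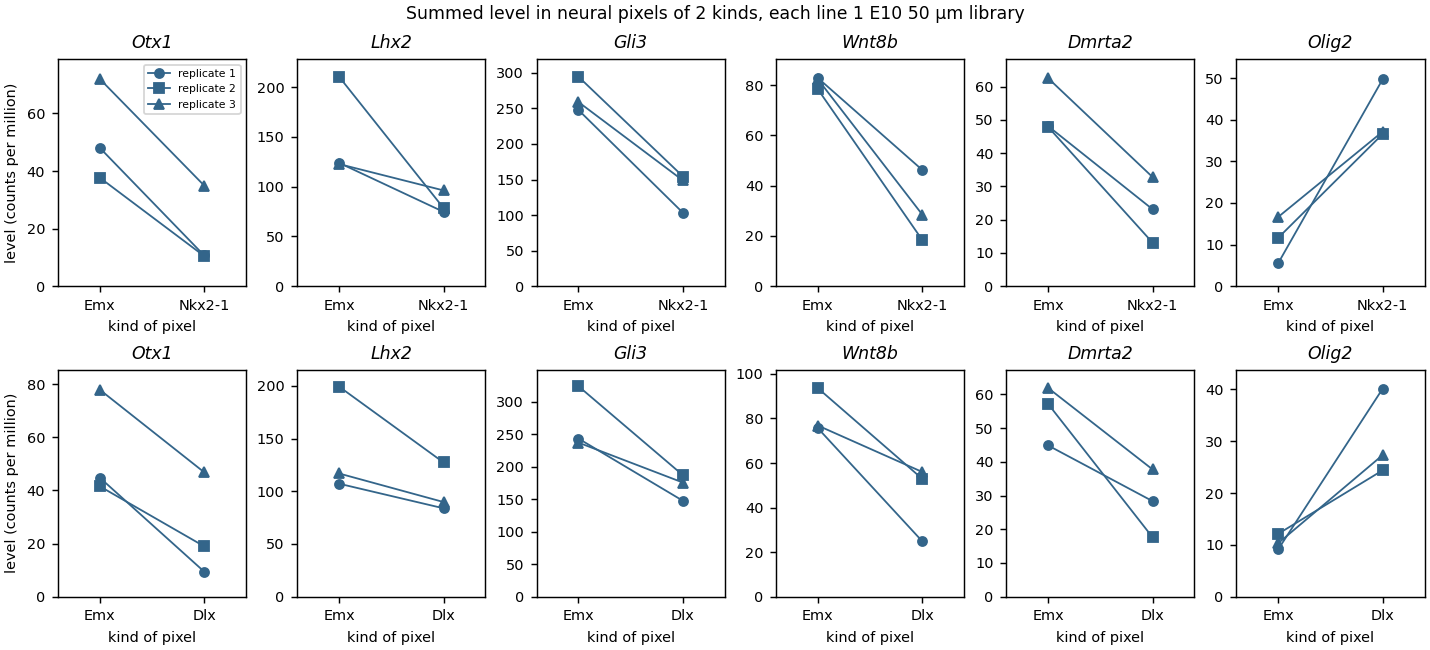
Level (vertical axis, CPM) of Otx1, Lhx2, Gli3, Wnt8b, Dmrta2 and Olig2, chosen after their values were seen, in Emx pixels against Nkx2-1 pixels (top) and against Dlx pixels (bottom); each line joins the 2 values of 1 section at E10 50 µm. Every line falls from Emx to the ventral kind but those of Olig2, which all rise.

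Emx pixels of any kind (82, 53 and 74) were then set against those with Otx1 or Otx2 and no Emx (155, 116 and 165), again among neural pixels. Lhx2 stood at 114 against 57.3, 194 against 120 and 119 against 66.8 CPM (log2 0.84, SE 0.109, edgeR adjusted p = 0.000223), 1 of 4 members tested, where 0.142% of 11262 genes were higher and 0.115% lower. Dlx1 (0.075), Dlx2 (-0.066) and Nkx2-1 (-0.30, SE 0.306, edgeR adjusted p = 0.958) did not pass. Of 13 dorsal genes tested, 4 were higher, among them Wnt8b (1.34), Dmrta2 (0.92) and Gli3 (0.54). Fezf2 (1.36), Nr2e1, an orphan receptor of neural progenitors (0.88), and Kat6b (0.64) rose as well. En2, a factor of the midbrain and hindbrain border, fell, at 18.4 against 40.8, 0 against 1.33 and 26.0 against 50.0 CPM (log2 -1.05, SE 0.210, edgeR adjusted p = 0.0212), and Cnpy1 (-1.0) and Olig3 (-1.24) fell with it. Replicate 2 held only 0 against 2 counts of En2, 0 against 6 of Cnpy1 and 2 against 7 of Olig3. These falls thus rest mainly on replicates 1 and 3. Unc5c, Sulf1, Fbn2 and Crabp1 fell by 0.51 to 0.69, and Ttn fell by 0.86, with its highest level in replicate 2. The call of Lhx2 was lost without replicate 2 (edgeR adjusted p = 0.0794), and the number of genes called was 3, 1 and 65 without replicates 1, 2 and 3.

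Likeness across all tissue pixels of the 3 sections named the genes that followed each member most closely, by the mean of Pearson's r of log2(count per 10000 + 1) among 13333 genes. Wnt8b came first for Emx1 (r = 0.204), Emx2 (0.298) and Otx1 (0.260). Cntnap2, a neurexin family adhesion gene, came first for Lhx2 (0.335) and Six3 for Otx2 (0.295) and Dlx1 (0.204). Olig2 was first for Dlx2 (0.188) and Nkx2-1 (0.211). These values describe pixels that share a section and a depth, and in sparse counts none of them is a strong relation.

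At E10 10 µm, some pairs kept their direction. Emx2 in Emx1-positive pixels stood at 39.6 against 9.40 CPM in replicate 1 and 159 against 65.1 in replicate 2. Dlx2 in Dlx1-positive pixels stood at 8.26 against 4.77 and 71.7 against 15.8 CPM, with 9 and 12 shared pixels. Otx2 in Otx1-positive pixels stood at 87.8 against 31.4 and 121 against 70.0 CPM. All 3 pairs were higher in both sections, as at 50 µm. Lhx2 in Emx2-positive pixels stood at 104 against 74.0 and 222 against 214 CPM, a smaller ratio than in any section at 50 µm. The widths share no section, and the difference between them was not tested.

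**Figure D5:**
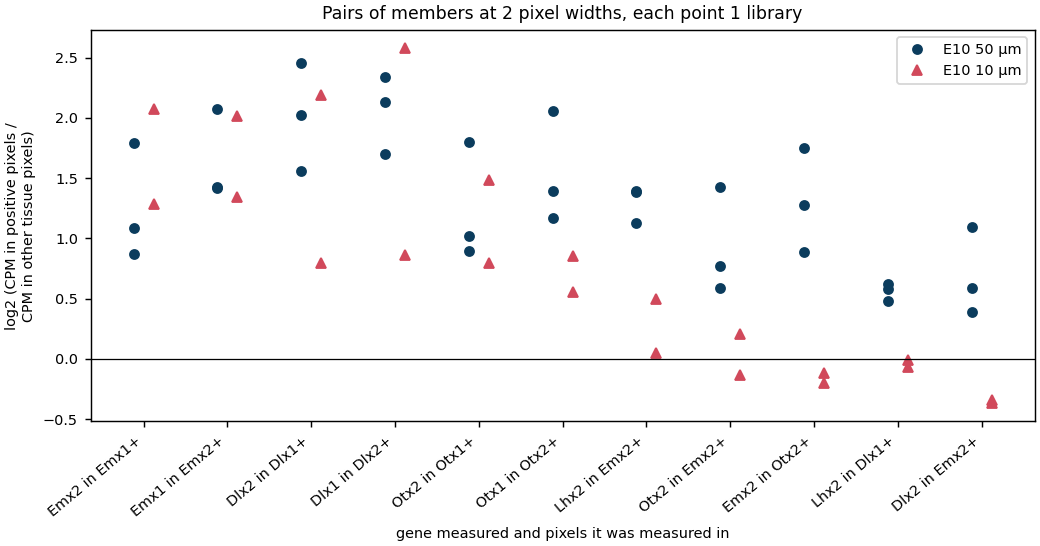
Log2 ratio of the level in positive pixels over other tissue pixels (vertical axis) for 11 ordered pairs of genes, chosen after their values were seen, in the 3 sections at E10 50 µm (circles) and the 2 at E10 10 µm (triangles); each point is 1 section. Pairs within the Emx, Dlx and Otx families lie above 0 at both widths, and Emx2 in Otx2-positive pixels lies above 0 at 50 µm and below 0 at 10 µm.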

How the data were processed

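Gene counts per pixel were deposited by the authors as whole numbers for 11 transcript libraries. The other 4 libraries, whose files hold antibody tags by their column names, were not used here. The submitters' processing notes name CASAVA 1.8.2 and GRCh38, a human build, for mouse samples; the aligner, counting rule, strand, duplicate handling and annotation are not given in the sources used here. Tissue pixels were kept and summed per library, which held 1.56 to 12.0M counts; intervals and limits cover counting error only. Of 16 columns named by an Ensembl identifier, 15 were matched to a symbol.

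Groups were fitted with edgeR 4.0.16 (R 4.3.3): TMM normalization, filterByExpr, robust quasi-likelihood test, 6 group means and 18233 genes. Pixel comparisons used sums over positive and other pixels of the 3 libraries at E10 50 µm, with the library as a block. Adjusted p is Benjamini-Hochberg over all genes tested, with a threshold of 0.05. On data simulated for Emx2-positive pixels, the script recovered 100% of 100 genes changed 4-fold among 14042, with 13 false calls in 213. For E12 against E10 it recovered 52% of 100 changed 4-fold and 94% of 100 changed 8-fold, among 17390 genes, and for Emx against Nkx2-1 pixels 92% of 100 changed 4-fold and 85% of 100 changed 8-fold, among 8680. The simulated libraries had equal gene shares apart from the changed genes, and 1 dispersion for all genes. No change under 4-fold was simulated, so the rates do not describe smaller ratios, which most members had in the pixel comparisons. Changed genes were drawn from those above 10 CPM. Emx1, Dlx2 and Nkx2-1, with means of 3.84, 5.63 and 7.75 CPM at E10 50 µm, lie under that, so these rates do not describe them.

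Named genes were the 8 members, up to 4 called genes per list and direction, and in the direct comparisons up to 8 other genes per direction with the largest log2 change, the same sign in all 3 sections and at least 10 CPM in the higher kind. Predicted genes without a proper symbol were left out, and a few genes the rule names are not reported here. Likeness was computed for genes that 2% or more of the tissue pixels held. Members and lists were chosen with earlier results of these data known. Alternatives were RLE factors, no filter, DESeq2 1.42.0, other pixel rules, the replicate block and leaving out each library. Positions are from GENCODE M21 and start windows from RefSeq.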

Additional observations from a re-analysis of the deposited data

Results flagged for a closer look

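For 6 ordered pairs of members, both sections at E10 10 µm went one way and all 3 sections at E10 50 µm the other. The measure is the log2 ratio of the gene's CPM in pixels positive for the other member to its CPM in the remaining tissue pixels. Of 56 ordered pairs, 47 had enough counts: 5 of the gene and 20 positive pixels in each section, and 1 count in the positive pixels. These minimums were chosen after the data were seen. The difference between the widths was not tested.

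Lhx2 in Dlx1-positive pixels had a mean log2 ratio of -0.036 at 10 µm (-0.0053 and -0.067), against 0.62, 0.58 and 0.48 at 50 µm. Both sections at 10 µm were thus close to 0, at 76.17 against 76.45 and 206.1 against 215.9 CPM. Otx1 in Dlx1-positive pixels had -0.67 (-1.04 and -0.30), against 0.035, 0.00092 and 0.33. Here 2 of the sections at 50 µm were close to 0, and replicate 1 at 10 µm held 108 counts of Otx1 in all its tissue pixels. Otx2 in Emx1-positive pixels had -0.24 (-0.27 and -0.22), against 0.35, 0.041 and 0.55. Dlx2 in Emx2-positive pixels had -0.36 (-0.34 and -0.37), against 0.39, 0.59 and 1.10. Emx1 in Otx2-positive pixels had -0.60 (-0.31 and -0.89), against 0.52, 0.36 and 1.61, and Emx2 in the same pixels had -0.16 (-0.12 and -0.20), against 0.88, 1.28 and 1.75.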

How the results depend on the processing

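Alternatives gave 363 recomputed values for the 39 member values that were called and 654 for the 60 that were not. Of the 363, 287 stayed called in the same direction and 76 did not pass. None of the 363 turned in sign. Of the 654, 557 kept their side and direction, 56 passed the threshold and 41 turned in sign. With no replicate block, edgeR called 0 genes and 0 members in each of the 11 pixel comparisons, with 56 to 285 genes at an unadjusted p under 0.05. Leaving that fit aside, 287 of 327 values stayed called. Numbers in brackets after "against" are those of the reported fit, and the cause of each change below was not tested. The replicate block could be fitted between groups for the E11 libraries only, whose titles number them. With the replicate block among them, E11 10 against 25 µm gave 297 genes called by edgeR, against 378, and 1 member (Otx2) against 0. The deviations of same-numbered E11 sections from their group means correlated at 0.0544 over 18233 genes. With 2 sections per group the deviations of replicates 1 and 2 mirror each other. The value therefore cannot tell whether same-numbered sections share more than a number.

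With no filter on low counts, edgeR called 1988 genes for E11 against E10 (against 656), 1328 for E12 against E10 (against 390), 731 for E10 10 against 50 µm (against 20), 870 for E11 10 against 25 µm (against 378) and 390 for Emx2-positive pixels (against 138). It called 376 for Otx1-positive pixels (against 220), 638 for Otx2-positive pixels (against 408), 273 for Dlx1-positive pixels (against 150), 160 for Nkx2-1-positive pixels (against 53) and 44 for Emx against Otx pixels (against 29). Under that setting it called 6 members for E11 against E10 (against 3), 2 for E12 against E10 (against 0), 1 for E10 10 against 50 µm (against 0), 4 for E11 10 against 25 µm (against 0), 2 for Nkx2-1-positive pixels (against 1) and 2 for Emx against Dlx pixels (against 1). DESeq2 called 1428 genes for E11 against E10 (against 656), 413 for E10 10 against 50 µm (against 20), 22 for Emx1-positive pixels (against 57), 70 for Emx2-positive pixels (against 138) and 115 for Lhx2-positive pixels (against 358). It also called 61 for Otx1-positive pixels (against 220), 131 for Otx2-positive pixels (against 408), 42 for Dlx1-positive pixels (against 150), 27 for Dlx2-positive pixels (against 118) and 32 for Nkx2-1-positive pixels (against 53). It also called 1 for Emx against Nkx2-1 pixels (against 27), 0 for Emx against Dlx pixels (against 19) and 4 for Emx against Otx pixels (against 29). Under that setting it called 6 members for E11 against E10 (against 3), 1 for E12 against E10 (against 0), 6 for E11 10 against 25 µm (against 0), 0 for Emx against Nkx2-1 pixels (against 2) and 0 for Emx against Dlx pixels (against 1). When a positive pixel needed 2 counts, edgeR called 123 genes for Emx1-positive pixels (against 57), 254 for Emx2-positive pixels (against 138), 77 for Dlx2-positive pixels (against 118), 8 for Emx against Nkx2-1 pixels (against 27) and 58 for Emx against Otx pixels (against 29). Under that setting it called 2 members for Emx2-positive pixels (against 4), 2 for Dlx2-positive pixels (against 4) and 1 for Emx against Nkx2-1 pixels (against 2). Among neural pixels only, edgeR called 37 genes for Emx1-positive pixels (against 57), 170 for Lhx2-positive pixels (against 358), 113 for Otx1-positive pixels (against 220), 145 for Otx2-positive pixels (against 408) and 25 for Nkx2-1-positive pixels (against 53). In tissue pixels of all kinds, edgeR called 55 genes for Emx against Nkx2-1 pixels (against 27), 41 for Emx against Dlx pixels (against 19) and 48 for Emx against Otx pixels (against 29). Under that setting 3 members passed for Emx against Dlx pixels (against 1). Values that turned in sign with no filter on low counts were Otx1 (-0.0061, E10 10 against 50 µm), Nkx2-1 (-0.024, E11 10 against 25 µm) and Emx1 (-0.035, Dlx2-positive pixels). Values that turned in sign with neural pixels only were Dlx1 (0.23, Emx1-positive pixels), Dlx2 (-0.27, Emx1-positive pixels) and Emx2 (0.15, Nkx2-1-positive pixels). Values that turned in sign with 2 counts per positive pixel were Dlx2 (-7.75, Emx1-positive pixels), Nkx2-1 (-0.75, Otx1-positive pixels) and Otx2 (-0.043, Emx against Dlx pixels). Values that turned in sign with tissue pixels of all kinds were Otx2 (0.015, Emx against Nkx2-1 pixels), Dlx1 (-0.12, Emx against Otx pixels) and Dlx2 (0.31, Emx against Otx pixels). With no replicate block, Dlx1 turned in sign (-0.0091, Emx against Otx pixels).

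Leaving out 1 section at a time, the number of genes edgeR called ranged from 144 to 1465 for E11 against E10, 98 to 969 for E12 against E10, 0 to 164 for E10 10 against 50 µm, 33 to 463 for E11 10 against 25 µm and 92 to 402 for Lhx2-positive pixels. It ranged from 108 to 322 for Otx1-positive pixels, 175 to 342 for Otx2-positive pixels, 39 to 86 for Dlx1-positive pixels, 45 to 97 for Dlx2-positive pixels and 23 to 130 for Nkx2-1-positive pixels. It went from 0 to 37 for Emx against Nkx2-1 pixels and 1 to 65 for Emx against Otx pixels. The number of members called ranged from 0 to 8 for E11 against E10, 0 to 2 for E12 against E10, 0 to 1 for E10 10 against 50 µm and 0 to 4 for E11 10 against 25 µm. It went from 0 to 2 for Nkx2-1-positive pixels, 0 to 2 for Emx against Nkx2-1 pixels, 0 to 2 for Emx against Dlx pixels and 0 to 1 for Emx against Otx pixels. The count for E11 against E10 was lowest without replicate 1 at E11 25 µm and highest without replicate 1 at E11 10 µm. For E12 it was lowest without replicate 3 at E10 50 µm (98 genes) and highest without replicate 1 at E11 10 µm (969). For E10 10 against 50 µm, 0 genes were called by edgeR without replicate 2 at E10 10 µm, with 1129 at an unadjusted p under 0.05, and also without replicate 1 or 3 at E10 50 µm or either section at E11 25 µm.

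The member log2 values that turned in sign when 1 section was left out were all uncalled. For E10 10 against 50 µm the ranges were Emx1 -0.43 to 2.25, Emx2 -0.77 to 2.09, Lhx2 -0.0096 to 1.58, Otx1 -1.40 to 0.78, Dlx1 -0.36 to 0.69, Dlx2 -0.15 to 1.77 and Nkx2-1 -1.93 to 0.88. For E11 10 against 25 µm the ranges were Emx1 -0.53 to 0.73, Otx1 0 to 10.86, Dlx2 -0.067 to 4.54 and Nkx2-1 -5.04 to 4.96. For Emx1-positive pixels the range was Dlx1 -0.48 to 0.0044. For Emx2-positive pixels the range was Nkx2-1 -0.073 to 0.17. For Dlx1-positive pixels the range was Emx2 -0.15 to 0.49. For Dlx2-positive pixels the ranges were Emx1 -0.22 to 0.29 and Otx1 -0.21 to 0.058. For Nkx2-1-positive pixels the ranges were Emx2 -0.47 to 0.10 and Lhx2 -0.032 to 0.43. For Emx against Nkx2-1 pixels the range was Otx2 -0.40 to 0.10. For Emx against Dlx pixels the range was Otx2 -0.10 to 0.23. For Emx against Otx pixels the ranges were Dlx1 -0.25 to 0.25 and Dlx2 -0.59 to 0.30. For E10 10 against 50 µm, each of these members turned on which of the 2 sections at E10 10 µm was left in. Fitted values of genes with 0 counts in a group, among them Otx1 at E11 and Dlx2 with 2 counts per positive pixel, depend on the prior count and are no bound. Where a pair was left with 2 sections, 1 residual degree of freedom remained. Shares of counts near positive pixels follow the window: 102 of 112 moved by more than the spread between sections when the window was 1 or 5 pixels wide. Of 16 mean levels at E10 50 µm recomputed with other tissue limits, 15 moved by less than that spread.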
